A study of Homo sapiens with 8 samples.

Results

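The HOX genes and the CDX factors were examined in H9 human embryonic stem cells grown on gels of 2 stiffnesses. Members were the loci whose gene symbol was HOX followed by A, B, C or D and a number, or CDX1, CDX2 or CDX4. The RefSeq gene table lists 39 HOX and 3 CDX genes, 42 in all, and 41 of them had a locus in the deposited expression tables. HOXC12 was not analysed here. The day 0 table listed 11 member loci among 33575, and the table of day 3.5 listed 30 among 34690. Several neighbouring HOX genes shared 1 merged locus with 1 value that cannot be split (the HOXA9/HOXA10 and HOXC4 to HOXC10 loci also hold a noncoding gene each): 3 of the 11 loci at day 0 (7 genes) and 6 of the 30 at day 3.5 (17 genes). Merged loci were counted apart, which left 8 single-gene loci at day 0 and 24 at day 3.5.

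The 4 groups were undifferentiated H9 cells at day 0 on 400 Pa gels, the same on 60 kPa gels, and mesoderm-induced cells at day 3.5 on 400 Pa and on 60 kPa gels. H9 is an established line derived from 1 embryo, and no group carries a genetic change by its labels. All 4 groups were grown on gels in medium conditioned by feeder cells, and the day 3.5 groups received bFGF, Activin, VEGF and BMP4. Each group had 2 libraries by its labels, which do not say whether these came from separate cultures, so every p-value measures only the spread between libraries. The tables hold 1 FPKM per group (fragments per kilobase of transcript, scaled to the mapped fragments of the library, and so a level per unit of length). Library values and read depth are unknown here, and no SD can be given.

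HOX genes encode homeodomain transcription factors that give cells their position along the head-to-tail axis. In the embryo each cluster is opened in order from its 3′ end, with paralogue group 1 first and group 13 last, as cells pass through the primitive streak and tail bud. The 3 CDX factors, relatives of Drosophila caudal, are induced by WNT and FGF signals in the posterior streak and activate trunk HOX genes there. CDX2 is also a defining factor of trophectoderm, the outer layer that forms the placenta.

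The labels were checked against marker genes. At day 0 the pluripotency genes POU5F1, NANOG, SOX2, LIN28A and DNMT3B summed to 1197 FPKM on 400 Pa and 1202 on 60 kPa, and at day 3.5 to 380 and 643. The 8 streak and mesoderm marker loci summed to 89.1 and 83.7 FPKM at day 0 and to 191 and 108 at day 3.5. At day 0 most of that sum was the FIP1L1,PDGFRA merged locus, at 78.7 and 68.8 FPKM. KDR was the other way round at 9.07 and 13.5 FPKM, with p = 0.0437 in the authors' deposited table and no call. T and EOMES were below 0.2 FPKM on both gels. The endoderm markers SOX17 and FOXA2 summed to 0.262 and 0.462 FPKM at day 3.5. Neuroectoderm markers (PAX6, SOX1, OTX2) summed to 137 FPKM on the soft gel and 82.4 on the stiff gel at day 0, and to 86.5 and 171 at day 3.5. Most of each sum was OTX2, at 136 and 82.2 FPKM at day 0 (p = 0.0074 in the authors' deposited table, no call). At day 3.5 OTX2 was at 69.3 and 152 FPKM and called toward 60 kPa. PAX6 was at 17.2 and 19.6 FPKM there with no call, and SOX1 was below 0.03.

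All 3 CDX genes were higher on the soft gel at day 3.5, and all 3 were called (q below 0.05) in the authors' deposited table, where 1.07% of all tested loci were called in that direction. CDX2 stood at 14.8 FPKM on 400 Pa and 1.74 on 60 kPa, CDX4 at 7.65 and 1.33, and CDX1 at 6.23 and 1.27. Their hg19 loci are chr13:28535056-28545276, chrX:72667089-72675081 and chr5:149546357-149564120. The 8.51-fold difference of CDX2 was the widest of the 3, followed by 5.73-fold for CDX4 and 4.92-fold for CDX1. On the log2 scale of the authors' deposited table the ratio of 400 Pa to 60 kPa was 3.09 for CDX2 (implied SE 1.08, q = 0.00783). The same table gave 2.52 for CDX4 (implied SE 0.84, q = 0.0410) and 2.30 for CDX1 (implied SE 0.77, q = 0.0410). The implied SE was worked out by dividing that log2 ratio by its deposited statistic. The order of the 3 ratios is within these errors. The CDX genes were also the only single-gene members at or above 1 FPKM on the stiff gel.

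A bulk level cannot tell fewer cells of a type from less RNA per cell, which holds for every value here. Because CDX2 also marks trophectoderm, the amnion and trophoblast markers were read beside it. All 4 of them were above 0 in every group and higher on 400 Pa at day 3.5, and together they summed to 134 FPKM on 400 Pa and 27.5 on 60 kPa. VTCN1 (81.3 and 7.44 FPKM) and KRT7 (30.7 and 6.94) were called, whereas GATA3 (8.02 and 4.33) and TFAP2A (13.6 and 8.83) were not. At day 0 the same 4 markers summed to 14.0 and 7.18 FPKM, and TFAP2A was called there. CDX2 at day 0 was not analysed here. The streak and mesoderm loci were all higher on 400 Pa at day 3.5 as well, with HAND1, a lateral and extraembryonic mesoderm factor, called at 53.8 against 6.07 FPKM. The part of either marker group in the CDX and HOX differences was not tested.

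Promoter windows of the members were taken from RefSeq (GRCh38.p14, 250 bases before to 50 after each annotated start). They covered 22 of the 42 genes in 29 windows, out of 35116 windows of all genes. The windows of the called genes CDX2 (chr13:27969266-27969565, minus strand), CDX4 (chrX:73446803-73447102, plus strand), HOXB1 (chr17:48530962-48531261, minus strand) and HOXA13 (chr7:27200042-27200341, minus strand) are shown because these are the called single-gene members with a window. Each reads 5′ to 3′ on the gene's strand, and capitals mark a match to TTTATT on either strand (CDX2) or to TGACAG (HOXA13).
CDX2: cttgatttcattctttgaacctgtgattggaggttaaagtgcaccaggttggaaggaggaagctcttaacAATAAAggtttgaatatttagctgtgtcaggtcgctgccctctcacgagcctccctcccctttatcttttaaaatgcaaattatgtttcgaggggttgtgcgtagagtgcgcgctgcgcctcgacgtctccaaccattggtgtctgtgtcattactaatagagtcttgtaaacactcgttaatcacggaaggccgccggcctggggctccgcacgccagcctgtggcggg
CDX4: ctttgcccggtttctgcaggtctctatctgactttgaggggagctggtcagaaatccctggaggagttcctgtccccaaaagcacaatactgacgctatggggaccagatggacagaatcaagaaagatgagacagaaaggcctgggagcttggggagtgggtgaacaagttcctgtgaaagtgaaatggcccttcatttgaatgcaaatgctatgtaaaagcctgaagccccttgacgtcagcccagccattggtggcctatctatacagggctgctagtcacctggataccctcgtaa
HOXB1: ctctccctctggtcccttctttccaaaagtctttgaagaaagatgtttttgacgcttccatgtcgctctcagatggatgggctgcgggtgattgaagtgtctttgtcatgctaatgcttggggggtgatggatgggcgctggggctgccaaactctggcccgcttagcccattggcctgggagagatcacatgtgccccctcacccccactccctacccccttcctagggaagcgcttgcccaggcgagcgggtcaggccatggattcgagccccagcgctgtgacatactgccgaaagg
HOXA13: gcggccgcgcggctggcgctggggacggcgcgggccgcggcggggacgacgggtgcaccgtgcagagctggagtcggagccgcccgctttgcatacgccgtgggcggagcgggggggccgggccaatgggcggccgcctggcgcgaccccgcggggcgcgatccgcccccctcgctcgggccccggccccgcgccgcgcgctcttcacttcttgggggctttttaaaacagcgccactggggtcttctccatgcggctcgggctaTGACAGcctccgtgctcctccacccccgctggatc
The TTTATT match of CDX2 starts at position -180 from the gene's start and lies on the minus strand, where it reads AATAAA in the printed direction. The TGACAG match of HOXA13 starts at base 15 after the gene's start. The windows of HOXB1 and CDX4 held none of the motifs searched.

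The motifs were searched on both strands of every window. TTTATG and TTTATT, letters resembling CDX sites, were in 10.3% and 31.0% of the 29 member windows and in 10.6% and 17.4% of all windows. HOXA3 alone has 7 of the 29 windows, and HOXC4 and HOXC5 share 1, so member windows are not independent. TGACAG, the core of a MEIS site, was in 13.8% of member windows and 15.8% of all. TGATTGAT, a joint HOX and PBX site, was in the windows of HOXA2 and HOXD11, 6.90% of member windows, against 0.484% of all. These 2 matches, both on the minus strand, are shown with their flanks and with the match in capitals.
HOXA2: acttttttggATCAATCAaacagacagt
HOXD11: taccaccagaATCAATCAagatgaattg
A pair of AGGTCA copies in the same direction 5 bases apart, a strict form of the retinoic acid response element, was in 0 member windows. It was in 2 of all windows (0.00570%), and at so low a share 0 of 29 member windows says nothing about the members. These are matches of letters in a window and do not show binding. The median GC content was 56.7% in member windows and 58.7% in all.

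HOX RNA at day 3.5 was mostly found on the soft gel: 26 of the 27 HOX loci were higher on 400 Pa, and with the CDX genes 29 of 30 loci (23 of 24 single-gene and 6 of 6 merged). Among all loci listed at day 3.5, 49.0% were above 0. HOXD1 was the exception, listed at 0 on 400 Pa and at 0.0196 FPKM on 60 kPa. The median difference of log2(FPKM + 1) over the 24 single-gene loci was 1.12, against -0.0056 over all loci listed and 0.02 over all tested loci. By the q of the authors' deposited table, 5 of the 13 tested single-gene loci were called. All 5 were higher on 400 Pa (CDX1, CDX2, CDX4, HOXA13, HOXB1), where 1.07% of all tested loci were called. The merged HOXB3/HOXB4/HOXB6 locus was called too. No member was called higher on 60 kPa, nor had one p below 0.05 in that direction, where 0.246% of tested loci were called.

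**Figure D1:**
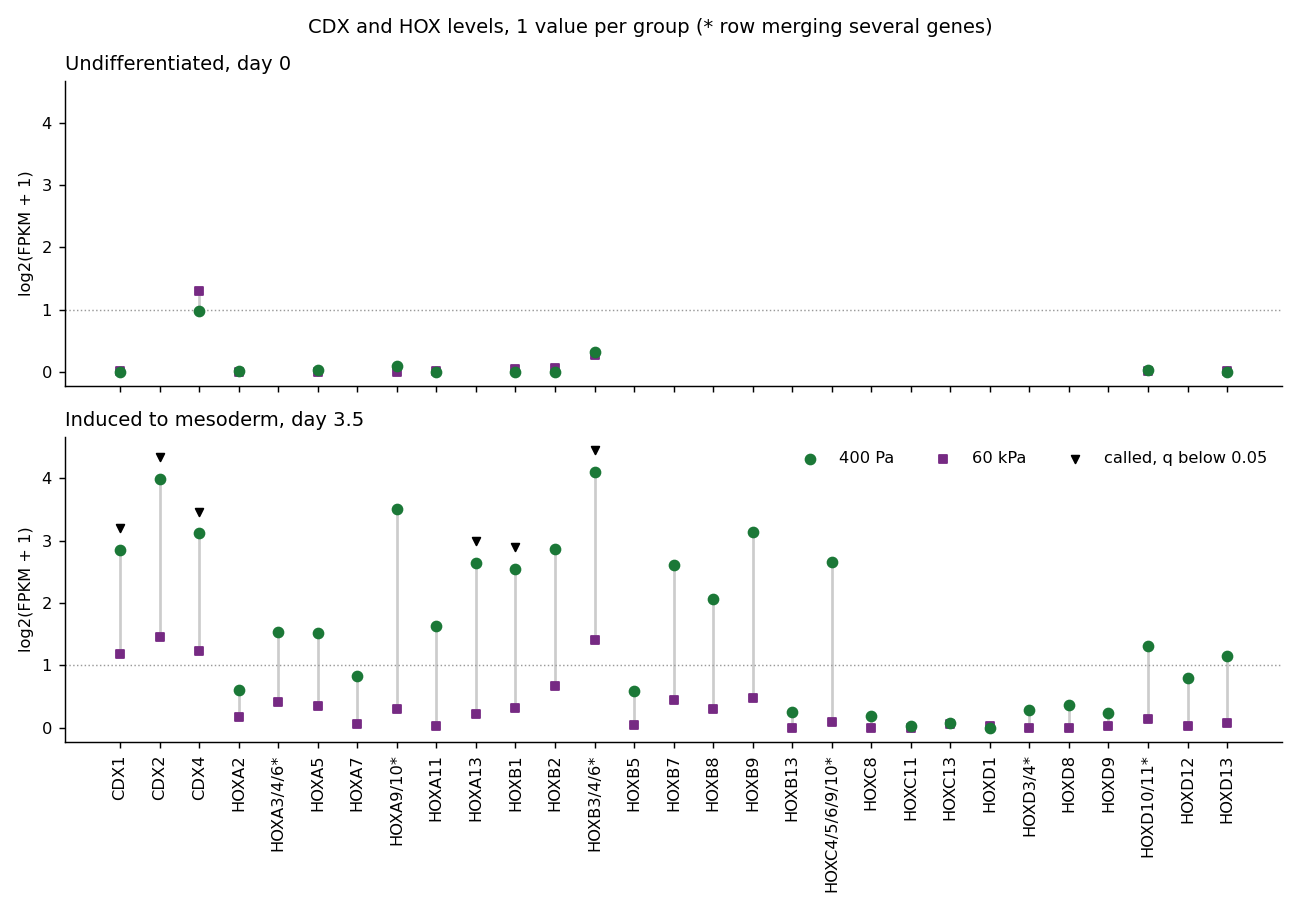
Level of each member locus as log2(FPKM + 1) on 400 Pa (circles) and 60 kPa (squares) at day 0 and day 3.5, in order of paralogue number within each cluster, with triangles over called loci and a dotted line at 1 FPKM. At day 3.5 all loci drawn but HOXD1 lie higher on 400 Pa, and the CDX genes and HOXB3/HOXB4/HOXB6 alone pass the line on 60 kPa. One value per group was deposited, so no error bars are drawn.

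A locus counted as tested when its deposited comparison had been run and it reached 1 FPKM on either gel. Of the 24 single-gene loci 13 were tested, and 10 of these reached 1 FPKM on 400 Pa only, so they had to be higher there and their direction supports nothing. HOXA13 and HOXB1 are among those 10. The same holds for 4 of the 5 tested merged loci, and 5 member loci listed at 0 on 60 kPa could only be higher on 400 Pa. The counts of member loci higher on 400 Pa given above are therefore a description only. At day 3.5 in all, 1343 loci reached 1 FPKM on 400 Pa only, and 4.77% of them were called. The 4 member loci that reached it on both gels were the 3 CDX genes and HOXB3/HOXB4/HOXB6, and all 4 were called, where 137 of 15353 such loci (0.892%) were.

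The clusters differed in level. On 400 Pa the HOXB loci summed to 43.9 FPKM, the HOXA loci to 26.7, HOXC to 5.52 and HOXD to 4.11. On 60 kPa these sums were 3.54, 2.07, 0.116 and 0.216 FPKM. The order of HOXB above HOXA above the other clusters was thus shared by both gels, while HOXC and HOXD stood in opposite order. All HOX loci together made 80.3 FPKM on 400 Pa and 5.94 on 60 kPa, 13.5-fold apart, and the CDX genes 28.7 and 4.34, 6.61-fold apart. Neither the order nor the gap between these folds was tested.

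HOXB held the most HOX RNA (hg19 chr17:46605646-46806540). HOXB1, the 3′-most gene and in the embryo the mark of a single hindbrain segment and of early streak mesoderm, stood at 4.83 FPKM on 400 Pa and 0.252 on 60 kPa. Its log2 ratio in the authors' deposited table was 4.26 (implied SE 1.05, q = 0.0139), in a locus at chr17:46605646-46608364. The merged HOXB3/HOXB4/HOXB6 locus, of cervical and trunk genes, had the highest level of any HOX locus, 16.1 FPKM against 1.67. For it the authors' deposited table gave a log2 ratio of 3.27 (implied SE 1.21, q = 0.00783).

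HOXB9, a thoracic gene, stood at 7.76 and 0.395 FPKM and just missed the call in the authors' deposited table (log2 ratio 4.30, implied SE 1.51, q = 0.0546). HOXB2, which acts in the hindbrain, had 6.26 and 0.593 FPKM, and the authors' deposited table gave it q = 0.695 and an unadjusted p of 0.0305. HOXB7 (5.11 and 0.357) and HOXB8 (3.19 and 0.238), both trunk genes, were not called, with implied SE of 2.21 and 3.98. Their log2 ratios of 3.84 and 3.75 in the authors' deposited table were as large as those of called loci, with wider errors. HOXB5 (0.503 and 0.0374) was below 1 FPKM on both gels. HOXB13, the tail-end gene that lies apart from the rest, stood at 0.190 FPKM on 400 Pa and listed at 0 on 60 kPa.

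In HOXA the only called gene was the 5′-most. HOXA13, which patterns the tail end, the digits and the genital tubercle, stood at 5.25 FPKM on 400 Pa and 0.162 on 60 kPa. The authors' deposited table gave a log2 ratio of 5.02 (implied SE 1.28, q = 0.0346), in a locus at chr7:27233121-27246878.

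The merged HOXA9/HOXA10 locus had the highest level of the cluster, 10.3 FPKM on the soft gel against 0.238. It was not called, and its implied SE of 6.0 exceeded its log2 ratio of 5.44 in the authors' deposited table. HOXA11, a limb and uterus gene, was at 2.08 and 0.0178 FPKM, a log2 ratio of 6.87 with an implied SE of 3.89 in the authors' deposited table. HOXA5 (1.85 and 0.272) and HOXA3/HOXA4/HOXA6 (1.90 and 0.336), of neck and upper trunk, passed 1 FPKM on the soft gel only and were not called. HOXA2 (0.515 and 0.125), of the hindbrain and branchial arches, and HOXA7 (0.785 and 0.0379), of the trunk, were below 1 FPKM on both gels.

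HOXC and HOXD were low. Nearly all HOXC RNA (hg19 chr12:54329111-54449814) was in the merged HOXC4/HOXC5/HOXC6/HOXC9/HOXC10 locus, at 5.31 FPKM on 400 Pa and 0.0686 on 60 kPa. Its implied SE of 11.5 was wider than its log2 ratio of 6.27 in the authors' deposited table, and it was not called. HOXC8, HOXC11 and HOXC13 were at 0.0164 to 0.146 FPKM on 400 Pa and at most 0.0474 on 60 kPa. In HOXD (hg19 chr2:176957618-177055688) the level lay at the 5′ end. The merged HOXD10/HOXD11 locus was at 1.48 and 0.108 FPKM, HOXD13, a digit and tail gene, at 1.21 and 0.0513, and HOXD12 at 0.736 and 0.0215. HOXD3/HOXD4 (0.214 FPKM) and HOXD8 (0.294) on 400 Pa were listed at 0 on 60 kPa, and HOXD9 was at 0.181 and 0.0155. None of the HOXC or HOXD loci was called.

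By paralogue number, the single-gene HOX loci named here of groups 1 to 3 had a median of 2.67 FPKM on 400 Pa and 0.189 on 60 kPa. These were 4 loci of unlike level on 400 Pa: HOXA2 (0.515), HOXB1 (4.83), HOXB2 (6.26) and HOXD1 (0). Groups 4 to 8 had 0.785 and 0.0379 (7 loci), and groups 9 to 13 had 0.736 and 0.0215 (9 loci). Single 5′ genes stood well above that last median on the soft gel, with HOXB9 at 7.76 and HOXA13 at 5.25 FPKM. All merged loci are outside these medians. Among them HOXB3/HOXB4/HOXB6 was at 16.1 FPKM on 400 Pa, HOXA9/HOXA10 at 10.3 and HOXC4/HOXC5/HOXC6/HOXC9/HOXC10 at 5.31. The medians therefore depend on which loci were merged, and their order was not tested.

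Within HOXA the gap between the gels widened from the 3′ to the 5′ end. The log2 ratio in the authors' deposited table was 2.04 for HOXA2, then 2.50 for HOXA3/HOXA4/HOXA6 and 2.77 for HOXA5. It was 4.37 for HOXA7, 5.44 for HOXA9/HOXA10, 6.87 for HOXA11 and 5.02 for HOXA13. Spearman's rho between place in the cluster and this ratio was 0.89 over these 7 loci and 0.90 over all 8 HOXA loci, which share their libraries and, in part, overlapping transcripts. It was 0.79 over the 7 and 0.62 over all 8 for the difference of log2(FPKM + 1), which shrinks the ratio of low genes. The 7 ratios rest on 60 kPa levels of 0.0178 to 0.336 FPKM, with implied SE up to 8.26 (HOXA7).

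Along HOXB the ratio was flat, between 3.27 for HOXB3/HOXB4/HOXB6 and 4.30 for HOXB9 in the authors' deposited table (rho 0.32 over 7 loci, and -0.18 for the difference of log2(FPKM + 1)). The 4 HOXD loci with a ratio had 3.55 for HOXD9, 3.77 for HOXD10/HOXD11, 5.10 for HOXD12 and 4.56 for HOXD13 in the authors' deposited table. Whether the trend in HOXA differs from HOXB was not tested.

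**Figure D2:**
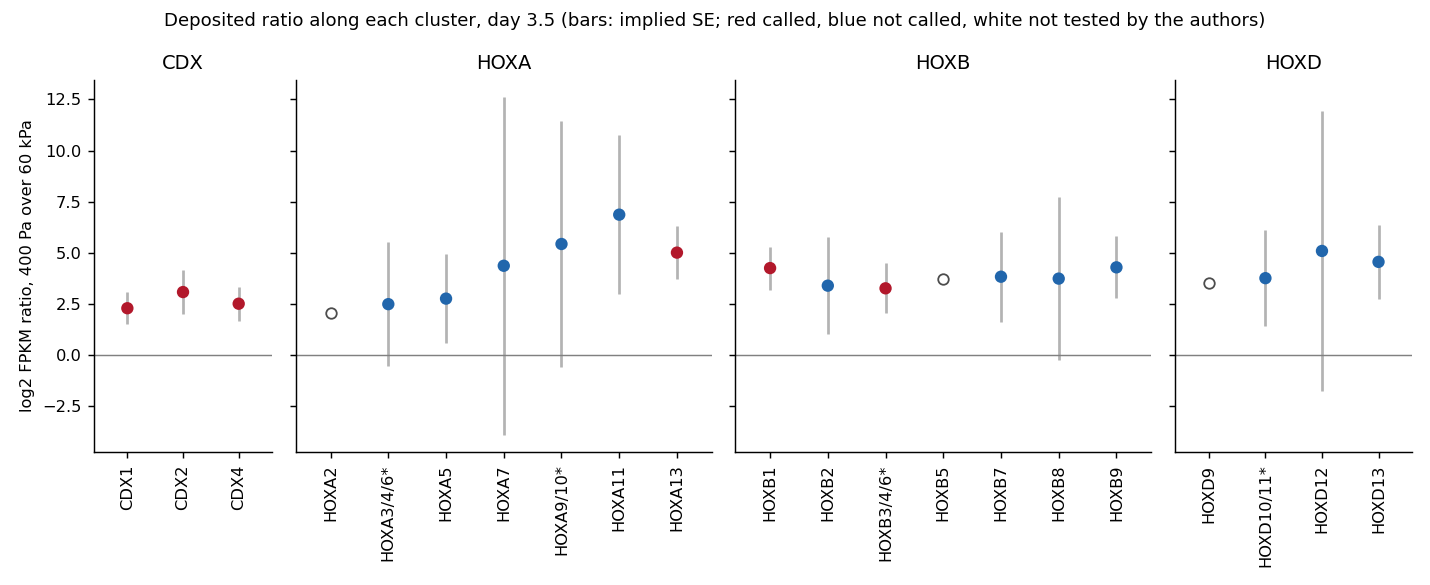
Log2 ratio of the 400 Pa to the 60 kPa FPKM at day 3.5 (y axis) for the CDX, HOXA, HOXB and HOXD loci above 0 on both gels, in cluster order (x axis), from the authors' deposited table, with bars of 1 implied SE where a statistic was deposited. HOXA ratios ran from 2.04 to 6.87 and HOXB ratios from 3.27 to 4.30, with wide bars at many loci.

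At day 0 the members were nearly silent on both gels. The HOX loci summed to 0.403 FPKM on 400 Pa and 0.348 on 60 kPa, most of it the merged HOXB3/HOXB4/HOXB6 locus (0.256 and 0.216). CDX4, the X-linked CDX gene, was the exception at 0.972 and 1.46 FPKM, and the only tested member. Its log2 ratio of -0.58 (implied SE 0.94) was not called in the authors' deposited table, which gave p = 0.381. CDX1 was listed at 0 on 400 Pa and at 0.0202 FPKM on 60 kPa. Of the 11 loci 5 were higher on 400 Pa and 6 on 60 kPa. None was called in either direction in the authors' deposited table, with 0 at p below 0.05. Only CDX4 was tested, so for the other loci this was fixed in advance. CDX4 reached 1 FPKM on 60 kPa only, so it had to be higher there. Of all tested loci 0.0619% had a call toward 400 Pa and 0.0788% one toward 60 kPa.

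The tables of the 2 days were normalized separately, so levels at day 0 and day 3.5 are set side by side with no test. CDX4 stood on the stiff gel at 1.46 FPKM at day 0 and 1.33 at day 3.5, and on the soft gel at 0.972 and 7.65. HOXB3/HOXB4/HOXB6 stood at 0.216 and 1.67 FPKM on the stiff gel and at 0.256 and 16.1 on the soft gel. HOXB1 stood at 0.0372 and 0.252 FPKM on the stiff gel, and on the soft gel was listed at 0 and then at 4.83. The HOX sum on the stiff gel was 0.348 FPKM at day 0 and 5.94 at day 3.5, where HOXB3/HOXB4/HOXB6 was the highest locus.

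The noncoding RNAs of the clusters went the same way as the HOX genes. Of 14 noncoding loci at day 3.5, 12 were higher on 400 Pa and 2 on 60 kPa (HOXB-AS4 and HOXC13-AS, both under 0.1 FPKM), 6 were tested and 1 was called. That was the merged HOXB-AS1/HOXB-AS3 locus, antisense RNAs of that cluster, at 99.5 and 2.88 FPKM. The authors' deposited table gave it a log2 ratio of 5.11 (implied SE 1.44, q = 0.00783). HOTAIRM1, a noncoding RNA of the HOXA cluster, was at 17.9 and 3.80 FPKM (q = 0.776 in the authors' deposited table). HOXA10-AS (1.63 and 0.0288) and HOXA11-AS (1.63 and 0.0358) were lower and not called, and HOXA-AS3 (2.17), HOXC-AS1 (1.45) and HOTTIP (0.621) on 400 Pa were listed at 0 on 60 kPa. HOTAIR, of the HOXC cluster, was at 0.0680 FPKM and listed at 0. HOXA10-AS, HOXA11-AS, HOXA-AS3 and HOXC-AS1 were tested through 400 Pa only, so they had to be higher there. Among all loci listed at day 3.5, 49.0% were higher on 400 Pa, and 1.07% of tested loci were called in that direction. The use of strand in the authors' quantification is not given in the sources used here, so reads of a HOX gene and of an antisense RNA over it cannot be told apart.

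Genes within 300 kb outside the clusters were read for comparison. Beside HOXB 15 of 18 such loci were tested, 0 were called in the authors' deposited table and 3 had p below 0.05. Of those 3, 2 were loci without a gene name on the HOXB1 side that were higher on 400 Pa. One (chr17:46570273-46578370) was at 3.07 and 0.335 FPKM, with p = 0.0255 in the authors' deposited table. The other (chr17:46578809-46579272) was at 1.33 FPKM and listed at 0, with p = 0.00175 in the authors' deposited table. A pair of further unnamed loci on that side stood the same way, at 1.44 and 0.126 FPKM and at 1.05 and 0.0975. All these unnamed loci were tested through 400 Pa only, so they had to be higher there and their direction supports nothing. The third locus with p below 0.05 was the tubulin ligase gene TTLL6, on the HOXB13 side, which was lower on 400 Pa at 1.33 and 3.96 FPKM. The neighbours of highest level were SNF8, of the ESCRT machinery, at 70.5 and 52.8 FPKM and IGF2BP1, an mRNA-binding protein, at 56.8 and 64.8. Between HOXB9 and HOXB13, inside the cluster, PRAC1 (8.08 and 1.43 FPKM) and PRAC2 (3.96 and 0.118) were higher on 400 Pa and were not called. PRAC2 was tested through 400 Pa only, so it had to be higher there. Beside HOXA 5 of 8 loci were tested and 1 was called, the adaptor protein gene SKAP2 (7.03 and 1.33 FPKM; q = 0.0346 in the authors' deposited table). The highest level there was that of EIF4HP1, at 92.1 and 85.6 FPKM with no call. At day 0 SKAP2 was at 3.13 and 3.23 FPKM. EVX1, a homeobox gene of the posterior streak beside HOXA13, was at 1.27 and 0.444 FPKM, tested through 400 Pa only and not called.

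Beside HOXC 13 of 21 loci were tested, and the noncoding RP11-834C11.4 was called (8.22 and 0.728 FPKM; q = 0.0323 in the authors' deposited table). The highest of these neighbours, ATP5G2, of the ATP synthase, and COPZ1, of the vesicle coat, were at 204 and 224 FPKM and at 208 and 143, with no call. Beside HOXD 4 of 8 loci were tested, 0 were called and 0 had p below 0.05, with AC016739.2 at 172 and 224 FPKM and KIAA1715 at 37.4 and 25.9.

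**Figure D3:**
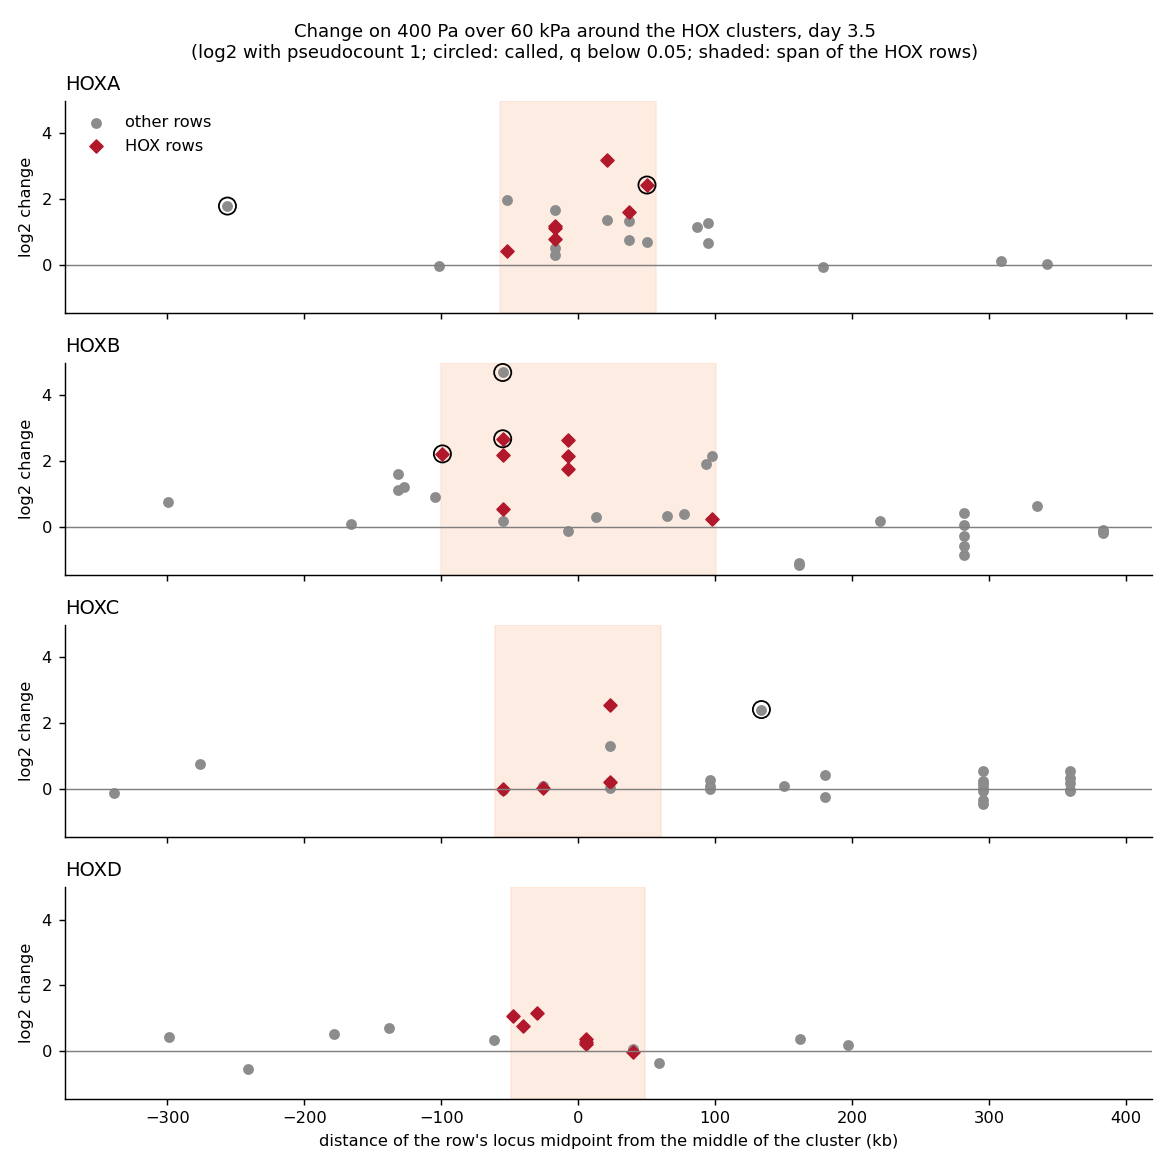
Difference of log2(FPKM + 1) at day 3.5, 400 Pa minus 60 kPa (y axis), for HOX loci, noncoding loci and neighbouring genes by distance of the locus midpoint from the middle of each cluster (x axis, kb), with called loci circled and the cluster shaded. HOX loci lie mostly above 0, and SKAP2 and RP11-834C11.4 are the called loci outside the clusters.

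HOX proteins bind DNA with the TALE homeodomain cofactors PBX, MEIS and PKNOX. Of 9 tested TALE genes 2 were called at day 3.5, both higher on 400 Pa. Of the 9, 6 were above 0, with a median difference of 0.06 in log2(FPKM + 1). Over all tested loci at day 3.5, 1.07% were called toward 400 Pa and 51.9% were above 0. MEIS1 reached 62.4 FPKM on the soft gel and 7.75 on the stiff gel (log2 ratio 3.01, implied SE 1.19, q = 0.00783 in the authors' deposited table). MEIS2 was at 42.3 and 10.2 FPKM, and the authors' deposited table gave 2.05 (implied SE 0.75, q = 0.00783). The partner PBX3 was at 23.3 and 25.7 FPKM and was not called. At day 0 MEIS1 was at 0.245 and 0.110 FPKM and MEIS2 at 3.84 and 1.29, with 0 of 7 tested TALE genes called and 1 (MEIS2) at p below 0.05.

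Of the signals and factors of the posterior growth zone, where CDX genes act, 15 of 17 were tested at day 3.5. Of the 15, 14 were above 0, beside 51.9% of all tested loci. The median difference of the 15 was 0.67. Beside 1.07% of all tested loci called toward 400 Pa, 2 of the 15 were called, both higher on 400 Pa. These were the WNT ligands WNT8A (26.1 and 9.10 FPKM) and WNT5A (24.8 and 8.03), each with q = 0.00783 in the authors' deposited table. WNT5B (22.7 and 5.37 FPKM, q = 0.0637 in the authors' deposited table) missed the call. NKX1-2, of the posterior growth zone, was at 15.7 and 13.2 FPKM, and T, the streak factor brachyury, at 12.0 and 5.15, with no call.

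Retinoic acid turns on 3′ HOX genes. None of the 14 tested genes of its axis was called at day 3.5, and 2 had p below 0.05. On each side of 0 lay 7 of them, where 51.9% of all tested loci were above 0. The highest were the binding proteins CRABP2 (438 and 315 FPKM) and CRABP1, which was the other way round at 93.7 and 226 (q = 0.0789 in the authors' deposited table). Polycomb proteins keep HOX clusters silent and trithorax proteins keep them active. Of 19 tested genes of the Polycomb list 0 were called, 2 had p below 0.05, 8 were above 0 and 11 below. The list also holds KDM6A and KDM6B, demethylases that oppose Polycomb silencing, and both were among the 11. RBBP7 was at 131 and 152 FPKM and RBBP4 at 116 and 118. Of 9 tested trithorax and MLL genes 0 were called and 0 had p below 0.05. Of these 2 were above 0 and 7 below, with PSIP1 at 147 and 195 FPKM and CXXC1 the other way at 41.9 and 29.3. At day 0 none of the tested genes of the TALE, growth zone, retinoic acid, Polycomb and trithorax lists was called, and p was below 0.05 for MEIS2 and ALDH1A2, a retinoic acid synthesis enzyme.

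**Figure D4:**
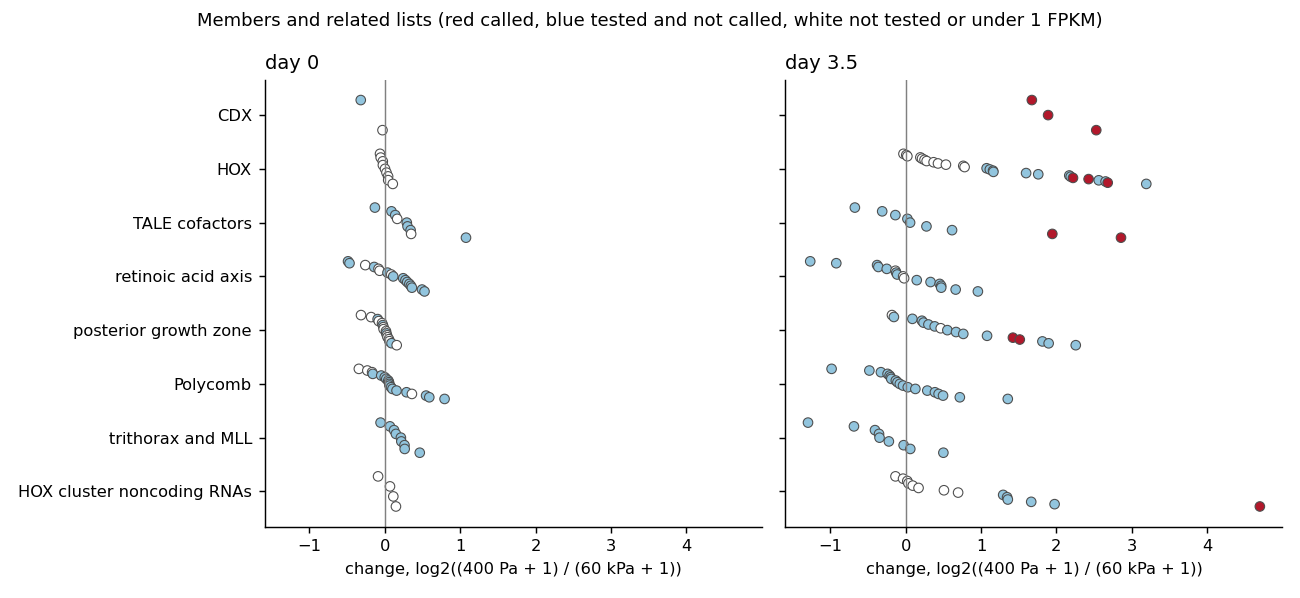
Difference of log2(FPKM + 1) between 400 Pa and 60 kPa for each gene of the HOX cofactor, signal and chromatin lists at day 0 and day 3.5, with called genes marked. At day 3.5 MEIS1, MEIS2, WNT5A and WNT8A are called on the 400 Pa side, and genes of the Polycomb and trithorax lists lie on both sides of 0.

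The uncalled members were read beside their errors. The implied SE had a median of 1.02 over all tested loci at day 3.5 and 0.80 over the called ones. The deposited p did not always follow the deposited statistic: in the authors' deposited table HOXD13 had a statistic of -2.52 with p = 0.0858, and HOXB2 one of -1.44 with p = 0.0305. An uncalled HOX gene, whatever its implied SE, is not shown to be equal on the gels.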

How the data were processed

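RNA of 8 libraries (2 per group by the labels' titles) was sequenced as total RNA libraries by an Illumina protocol, per the labels' protocols. The authors deposited 1 table per day with 1 FPKM per group, a log2 ratio, a test statistic (a score with no fixed range), a p-value and a q-value for each locus. Cufflinks and the build hg19 are named in the submitters' processing notes. For the aligner, versions, annotation, strand setting and pooling the entry is: not given in the sources used here. Depth per library is unknown, so no interval was given. Merged loci and locus spans can hold several genes and are kept as deposited.

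No count or library values were used, so the authors' deposited p and q stood as the test. The q matched an adjustment over the loci whose comparison had been run, 19486 at day 0 and 20670 at day 3.5. A locus was tested with status OK and at least 1 FPKM on either gel, and called at q below 0.05. From the FPKM, log2(FPKM + 1) differences were computed with pandas 2.3.3, scipy 1.17.1 and numpy 2.4.6 under Python 3.11.15, and drawn with matplotlib 3.10.9. Scripts were tested on simulated data. A symbol with several loci was counted once, by its highest mean FPKM. Medians over members cover all listed single-gene loci, not only those past the FPKM minimum, because most passed it through 1 gel only.

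The members and lists were chosen with earlier results of these data known. Members reaching 1 FPKM in any group or called were named with their values. Of each other list the called genes and up to 2 further tested genes of highest mean FPKM were named, with PBX, MEIS, T and HAND1 allowed in any case. Marker values, cluster noncoding RNAs, neighbours, WNT5B and low members were named after their values were seen. Some genes are not reported here by name or in the plots, but counts and sums over loci include them. Cluster neighbours lay within 300 kb. Promoter sequences are from RefSeq (GRCh38.p14) and are not aligned to the hg19 loci. Alternatives were another pseudocount, FPKM minimum or q, merged loci counted and centring.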

Additional observations from a re-analysis of the deposited data

How the results depend on the processing

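No paired analysis was possible because the tables hold 1 value per group and no library values, so neither a replicate block nor leaving out a library could be run. The count of single-gene members called higher on 400 Pa at day 3.5 was 5, and it was 1 at q below 0.01, 6 at q below 0.1, 6 with merged loci counted and 8 at an unadjusted p below 0.05. Members above 0 at day 3.5 were 23 of 24, and 13 of 13 at a minimum of 1 FPKM and 7 of 7 at a minimum of 5, where the minimum itself selects the higher gel. At day 0 they were 2 of 8, and 0 of 1 at a minimum of 0.1 or 1 FPKM. They were 5 of 11 with merged loci and 1 of 8 after centring on the median of all tested loci. The day 3.5 median of 1.12 was 2.41 with a pseudocount of 0.1, 1.62 with 0.5, 1.89 at a minimum of 1 FPKM and 2.19 at 5. At day 3.5 on 400 Pa 13 members reached 1 FPKM, 21 reached 0.1 and 7 reached 5. On 60 kPa 3 reached 1, 12 reached 0.1, 5 reached 0.5 and 0 reached 5. At day 0 on 400 Pa 0 reached 1 and 1 reached 0.1 or 0.5, and on 60 kPa 1 reached 1 and 0 reached 5, which left no member there. Of 63 single-locus values under other pseudocounts or centring 0 reversed and 3 moved by over 1 implied SE, all with a pseudocount of 0.1: HOXA13 to 4.35, HOXB1 to 3.81 and HOXD13 to 3.12. Depth is unknown, so a member listed at 0 is not shown to be silent.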

Other observations

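The other ParaHox and EVX genes were scarce. EVX2, beside HOXD13, was not tested at day 3.5 (0.402 FPKM on the soft gel and 0.105 on the stiff gel). GSX2, a ParaHox gene of the forebrain, was listed at 0 on 400 Pa and at 0.139 FPKM on 60 kPa. The antisense EVX1-AS, in a merged locus near HOXA13, was at 6.29 and 2.02 FPKM and was not called, above EVX1 itself on both gels. TTLL6, next to the HOXB cluster, was at 2.49 and 0.912 FPKM at day 0, the reverse of its order at day 3.5 (1.33 and 3.96), with no call on either day and the difference not tested. At day 0 it was tested through 400 Pa only, so its order there was fixed.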
